A study of Mus musculus with 12 samples.

Results

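The genes described here are the ligands and receptors of the tumour necrosis factor (TNF) superfamily, followed in cultured mouse bone-marrow-derived dendritic cells. They were chosen by gene symbol from the authors' table. The rule took symbols that start with Tnfsf or Tnfrsf, save for 1 gene not analysed here, and added Tnf, Lta, Ltb, Ltbr, Fas, Fasl, Cd27 and Cd70. It found 39 of the 37991 genes in the count table, namely 15 ligands, 22 receptors and 2 transcripts of the Tnfsf13 locus. A filter on low counts kept 35 of them among 18981 genes tested. Those 35 passed with the help of any group in which they were high, so they are not all members. RNA was sequenced from cells of C57BL/6 strain, per the labels, in 4 groups of 3 libraries each. The groups were Vav1/2/3-/- cells (KO) given curdlan for 3 hours, KO cells left without it, wild-type (WT) cells given curdlan for 3 hours and WT cells left without it. The labels give curdlan as 200 mg/ml, a unit that could not be checked. Vav proteins relay signals from receptors that engage the kinase Syk, and curdlan is a beta-glucan bound by one of these, Dectin-1. Values below follow the library numbers, which were 2, 4 and 5 for KO with curdlan, 1, 2 and 5 for unstimulated KO, and 1, 2 and 4 for both WT groups.

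Ligands of the TNF superfamily are mostly made as membrane proteins that assemble as trimers, and several, TNF among them, are shed from the cell surface. Many of their receptors recruit TRAF adapters and activate NF-kB and MAP kinases, and some carry a death domain that can also start apoptosis or necroptosis. Decoy receptors bind ligand without signalling. Dendritic cells release TNF when pattern receptors are engaged, and show membrane ligands such as those for OX40, CD30, CD27 and GITR to T cells that carry the receptors.

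Library totals ran from 41421718 to 61217861 counts, so that 3 counts corresponded to between 0.0428 and 0.083 CPM, the unit used here for counts scaled to the effective library size. The library names put each group on its own sequencing lane, so lane and group cannot be told apart. Whether replicates are separate animals or cultures is not in the labels, and the p-values measure the spread between these libraries, which may be technical. No transcript of Vav1, Vav2 or Vav3 was called lower in the libraries labelled KO in either state. Vav2 averaged 282 ± 6.04 CPM in unstimulated KO and 67.3 ± 3.1 CPM in unstimulated WT (SD, n = 3 each), and Vav1 averaged 212 ± 18.1 CPM in KO and 133 ± 2.18 CPM in WT. The counts cover whole genes, and the sources used here do not give the exons deleted. KO and WT below therefore mean the libraries so labelled, and each direction between genotypes rests on those labels. Of 10 dendritic cell marker genes, Cd74, H2-Aa and Itgax were abundant in both genotypes, with Itgax at 788 CPM in unstimulated KO and 1488 CPM in unstimulated WT, whereas Flt3 averaged 1.66 CPM in KO and 2.12 CPM in WT. In unstimulated cells, Clec9a averaged 0.176 CPM in KO and 9.33 CPM in WT, and Ccr7 77.1 CPM in KO and 131 CPM in WT. Cd209a averaged 71.8 ± 50.9 CPM in unstimulated KO and 4.17 ± 0.521 CPM in unstimulated WT (SD, n = 3 each). The KO libraries of Cd209a were unlike each other, at 59, 128 and 28.5 CPM, and those numbered 5 were the lowest of their groups in both states.

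Set per kilobase of exon, Tnf was the highest of the members in KO with curdlan, in unstimulated KO and in WT with curdlan, whereas Tnfrsf1b, the gene of TNF receptor 2, was the highest in unstimulated WT. The level of all members together was 3667 ± 604 CPM per kilobase in KO with curdlan and 1505 ± 83.8 in unstimulated KO. It was 2852 ± 436 CPM per kilobase in WT with curdlan and 612.7 ± 37.1 in unstimulated WT (SD, n = 3 each). Tnf alone stood at 2440 CPM per kilobase in KO with curdlan, 575 in unstimulated KO, 1830 in WT with curdlan and 96.6 in unstimulated WT. It held 61.7% to 69.2% of the summed level in the KO curdlan libraries and 35.1% to 41.4% in the unstimulated KO libraries. Its share was 62.9% to 64.7% in the WT curdlan libraries and 14.3% to 16.5% in the unstimulated WT libraries. Tnfrsf1b held 10.7% to 15.8% in KO with curdlan, 30.5% to 36.4% in unstimulated KO, 11.5% to 13.8% in WT with curdlan and 33.7% to 38.9% in unstimulated WT. After these came Tnfsf15, Tnfsf8, Tnfsf9 and Tnfrsf1a in KO with curdlan, and Tnfrsf1a, Tnfrsf9, Tnfsf15 and Ltbr in unstimulated WT. In bulk RNA, fewer cells of a type and less RNA per cell cannot be told apart.

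Curdlan raised most of the ligands in both genotypes. By edgeR's quasi-likelihood F-test, with Benjamini-Hochberg adjustment over all genes, 14 of the 35 tested members rose with curdlan in KO and 5 fell, with 14% of all tested genes called higher and 14.6% called lower. In WT, 14 members rose and 3 fell, with 11.4% of all tested genes called higher and 8.4% lower. The median log2 fold change of the members was 0.18 in KO, with -0.001 over all tested genes, and 0.35 in WT, with -0.034 over all tested genes. Of the 14 tested ligands, 10 rose in KO and 9 in WT, with median log2 fold changes of 1.57 in KO and 1.41 in WT. The same test found 0 ligands lower in either genotype, with 0 lower at an unadjusted p under 0.05 and 0 lower with DESeq2. Of the 19 tested receptors, 4 rose and 5 fell in KO, and 5 rose and 3 fell in WT. The members called higher in both genotypes numbered 10, namely Tnf, Lta, Tnfsf4, Tnfsf8, Tnfsf9, Tnfsf10, Tnfsf15, Tnfsf18, Tnfrsf1a and Tnfrsf12a.

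**Figure D1:**
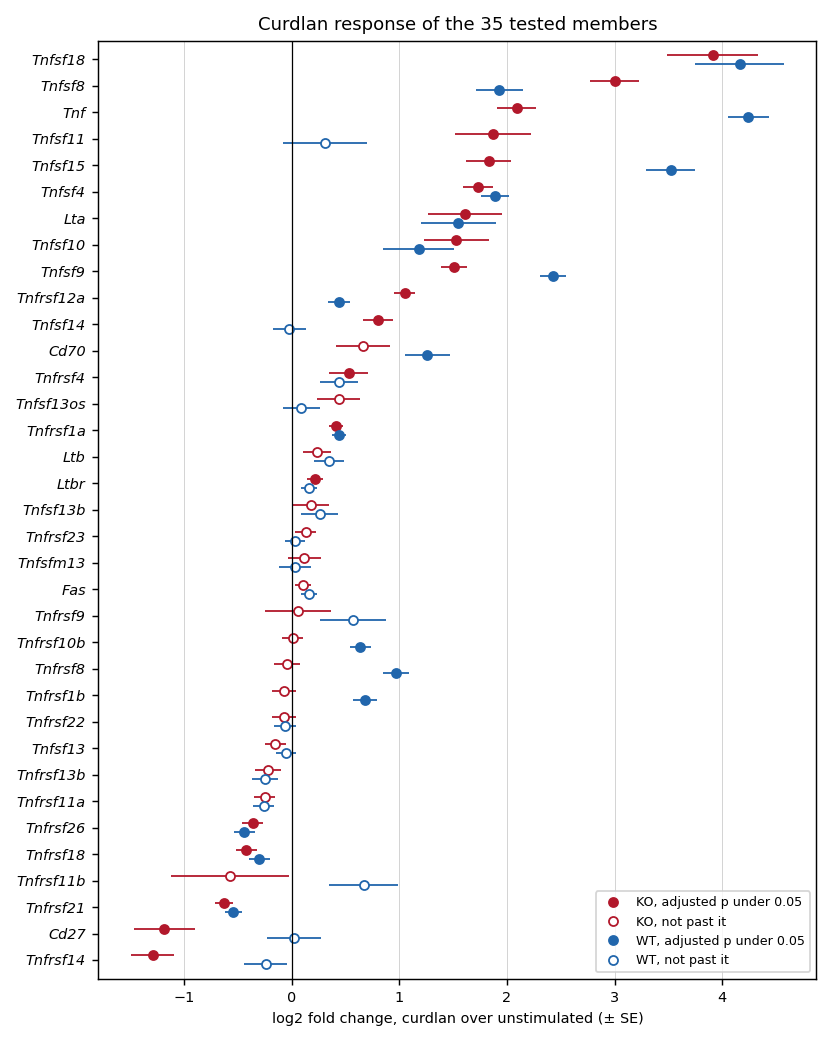
Log2 fold change of curdlan over unstimulated cells (horizontal axis, ± SE) for each of the 35 tested members, with KO drawn above WT and filled points for an adjusted p under 0.05. The points of Tnf lie at 2.09 in KO and 4.24 in WT, those of Tnfsf8 at 3.00 in KO and 1.93 in WT, and 10 members are filled to the right of 0 in both genotypes.

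Tnf (ENSMUSG00000024401, chr17:35199381-35202007, minus strand, GRCm38), a master inflammatory cytokine gene, measured 4385, 3006 and 4602 CPM in KO with curdlan and 868, 881 and 1076 CPM in unstimulated KO. In WT it measured 2875, 2580.4 and 3531 CPM with curdlan and 159.7, 138 and 178 CPM without. The curdlan libraries lay above all unstimulated libraries in each genotype, and unstimulated KO libraries lay above unstimulated WT libraries without overlap. With curdlan the KO and WT ranges overlapped. The log2 fold change with curdlan was 2.09 (SE 0.18, adjusted p = 1.05e-05) in KO and 4.24 (SE 0.19, adjusted p = 8.58e-08) in WT, which is 4.25-fold in KO and 18.9-fold in WT.

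Tnfsf15 (ENSMUSG00000050395, chr4:63727084-63745113, minus strand) encodes TL1A, the ligand of the death-domain receptor encoded by Tnfrsf25. It measured 627, 442 and 566 CPM in KO with curdlan and 170.0, 155 and 136 CPM in unstimulated KO. The WT libraries held 649.5, 645 and 1178 CPM with curdlan and 66.4, 71.2 and 78.3 CPM without. All 6 curdlan libraries lay above all 6 unstimulated ones, and WT curdlan library 4 held the highest value. Curdlan's log2 fold change was 1.83 (SE 0.21, adjusted p = 8.77e-05) in KO and 3.52 (SE 0.23, adjusted p = 1.55e-06) in WT. Tnfrsf25 itself held between 0 and 8 counts in any library and was not tested.

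Next to Tnfsf15 on chromosome 4, with a gap of 86195 bases, lies Tnfsf8 (ENSMUSG00000028362, chr4:63831308-63861347, minus strand), which encodes CD30 ligand. It measured 461, 324 and 600.4 CPM in KO with curdlan and 63.7, 63 and 46.5 CPM in unstimulated KO. Its values in WT were 152, 148 and 231 CPM with curdlan and 45, 47.2 and 47.1 CPM without it. All 3 KO curdlan libraries lay above every WT curdlan library, whereas the unstimulated ranges of the genotypes overlapped. Its response on the log2 scale was 3.00 (SE 0.23, adjusted p = 4.98e-06) in KO and 1.93 (SE 0.22, adjusted p = 8.63e-05) in WT.

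The promoter windows of these 3 ligand genes are shown because their transcripts rose with curdlan in both genotypes. Those of Ltb, Tnfsf14 and Tnfrsf8 are shown as 3 examples among the members whose window holds a match to one of 2 searched motifs and whose transcripts differed between the genotypes. The sequences are the 250 bases before the start in RefSeq (GRCm38.p6), written in the direction of transcription. Capitals mark a match on either strand to an NF-kB-like motif (GGG, any 3 bases, then TTCC) or to an AP-1-like motif (TGANTCA).
Tnf, chr17:35202008-35202257, minus strand: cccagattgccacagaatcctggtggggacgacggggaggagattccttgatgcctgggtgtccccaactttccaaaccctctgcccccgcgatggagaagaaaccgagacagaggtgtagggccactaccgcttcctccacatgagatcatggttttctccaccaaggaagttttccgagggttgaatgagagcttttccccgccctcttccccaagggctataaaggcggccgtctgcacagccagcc
Tnfsf15, chr4:63745060-63745309, minus strand: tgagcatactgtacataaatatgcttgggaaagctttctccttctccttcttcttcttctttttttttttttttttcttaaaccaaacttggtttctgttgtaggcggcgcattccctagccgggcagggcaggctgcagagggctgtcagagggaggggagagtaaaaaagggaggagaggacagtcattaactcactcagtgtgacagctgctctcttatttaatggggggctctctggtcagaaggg
Tnfsf8, chr4:63861285-63861534, minus strand: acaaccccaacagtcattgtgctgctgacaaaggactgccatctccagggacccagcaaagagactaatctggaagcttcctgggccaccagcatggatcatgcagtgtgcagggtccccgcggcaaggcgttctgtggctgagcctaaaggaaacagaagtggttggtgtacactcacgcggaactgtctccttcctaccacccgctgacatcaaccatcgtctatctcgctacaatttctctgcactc
Ltb, chr17:35194257-35194506, plus strand: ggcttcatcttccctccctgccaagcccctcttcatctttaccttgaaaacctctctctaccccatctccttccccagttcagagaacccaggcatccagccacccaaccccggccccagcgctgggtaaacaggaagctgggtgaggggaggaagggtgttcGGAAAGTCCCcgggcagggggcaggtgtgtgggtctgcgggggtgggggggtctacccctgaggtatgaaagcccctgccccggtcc
Tnfsf14, chr17:57194182-57194431, minus strand: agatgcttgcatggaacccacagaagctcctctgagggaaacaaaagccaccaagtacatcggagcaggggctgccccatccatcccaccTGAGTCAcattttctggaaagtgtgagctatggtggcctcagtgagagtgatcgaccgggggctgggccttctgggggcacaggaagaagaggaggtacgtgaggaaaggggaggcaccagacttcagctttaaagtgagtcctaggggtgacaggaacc
Tnfrsf8, chr4:145315165-145315414, minus strand: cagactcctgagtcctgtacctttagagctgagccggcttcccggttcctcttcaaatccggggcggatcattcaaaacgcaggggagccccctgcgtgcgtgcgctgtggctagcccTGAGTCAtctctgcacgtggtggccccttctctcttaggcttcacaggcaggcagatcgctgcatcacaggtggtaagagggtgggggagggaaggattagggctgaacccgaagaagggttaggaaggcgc
In these 6 windows, the NF-kB-like motif was found in that of Ltb, with its first base 87 bases before the start. The AP-1-like motif began 160 bases before the start of Tnfsf14 and 132 bases before that of Tnfrsf8. Over windows that run from 250 bases before to 50 bases after a start, the NF-kB-like motif was present in 3 of 35 windows of 31 matched members (8.57%) and in 5.56% of all 32851 windows. The AP-1-like motif was present in 7 of 35 member windows (20%) and in 7.81% of all windows. Among the 7 were overlapping windows at different starts of Tnfsf13b, which hold the same site, so that site was counted more than once. Both motifs were in 1 window, at a second start of Tnfrsf9. Fas and Tnfsf13 also held the AP-1-like motif and differed between the genotypes, and their windows are not shown. A match of letters is a description of the sequence, not of binding.

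Tnfsf9 (ENSMUSG00000035678, chr17:57105325-57107757, plus strand), the gene of the ligand of the costimulatory receptor CD137, measured 116, 116 and 109 CPM in KO with curdlan and 34.2, 44.8 and 40.9 CPM in unstimulated KO. With curdlan, WT libraries held 71.8, 57 and 68.2 CPM, against 13.5, 10.8 and 12.2 CPM in unstimulated WT. Among the 4 groups, none overlapped another. The log2 fold change with curdlan was 1.51 (SE 0.12, adjusted p = 4.92e-06) in KO and 2.43 (SE 0.12, adjusted p = 1.45e-07) in WT. Its exons overlap those of another counted gene over 14.9% of their length, and the library kit does not mark strand, so some reads may belong to that gene.

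Tnfsf4 (ENSMUSG00000026700, chr1:161395409-161418410, plus strand), the gene of OX40 ligand, measured 16.7, 14.1 and 14.1 CPM in KO with curdlan and 5.05, 4.36 and 4.17 CPM in unstimulated KO. Levels in WT were 65.5, 65.7 and 90 CPM with curdlan and 20.3, 20.6 and 18.7 CPM in unstimulated cells. Levels in KO lay below those in WT in each state, and every KO curdlan library lay below every unstimulated WT library. Curdlan raised it in both genotypes, with log2 fold changes of 1.73 (SE 0.14, adjusted p = 6.22e-06) in KO and 1.89 (SE 0.13, adjusted p = 1.77e-06) in WT. The difference of these responses was -0.17 (SE 0.18, adjusted p = 0.614) and did not pass.

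Tnfsf18, the gene of GITR ligand and the next member on chromosome 1, measured 6.8, 3.35 and 4.81 CPM in KO with curdlan and 0.258, 0.53 and 0.238 CPM in unstimulated KO. In WT it measured 4.37, 3.98 and 8.18 CPM with curdlan and 0.428, 0.283 and 0.19 CPM without. It was near the limit of counting in unstimulated cells and above it in each curdlan library, with log2 fold changes of 3.91 (SE 0.42, adjusted p = 5.25e-05) in KO and 4.16 (SE 0.41, adjusted p = 2.56e-05) in WT. The KO and WT ranges overlapped in both states.

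Cd70, whose product is the ligand of CD27, completes the costimulatory ligands. It averaged 0.874 ± 0.256 CPM in KO with curdlan and 0.557 ± 0.149 CPM in unstimulated KO, and 2.1 ± 0.0387 CPM in WT with curdlan and 0.873 ± 0.149 CPM in unstimulated WT (SD, n = 3 each). Its rise passed the test in WT, where the log2 value was 1.26 (SE 0.21, adjusted p = 0.00115), and not in KO, where it was 0.66 (SE 0.25, adjusted p = 0.0698). The difference of the responses was -0.60 (SE 0.33, adjusted p = 0.271) and did not pass. Of the 5 costimulatory ligands, 4 rose in KO and 5 in WT, beside 14% of all tested genes in KO and 11.4% in WT.

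**Figure D2:**
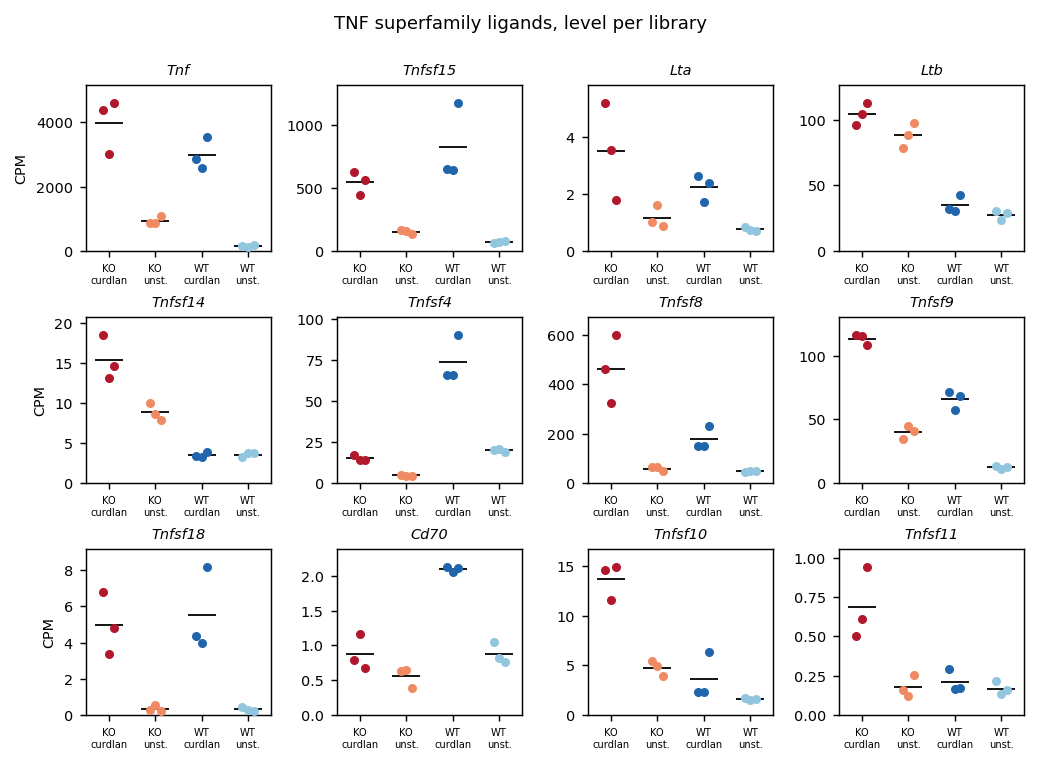
Level in CPM (vertical axes, each from 0) of 12 ligand genes in every library, as points, with the group mean as a line, for KO with curdlan, unstimulated KO, WT with curdlan and unstimulated WT. For Tnf the unstimulated KO libraries, at 868, 881 and 1076 CPM, lie between the curdlan libraries and the unstimulated WT libraries, at 159.7, 138 and 178 CPM.

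The lymphotoxin genes flank Tnf on chromosome 17, with Ltb 3061 bases from it on one side and Lta 1158 bases from it on the other. Lta, which encodes the secreted lymphotoxin alpha, measured 5.2, 3.54 and 1.77 CPM in KO with curdlan and 1.03, 1.61 and 0.861 CPM in unstimulated KO. The WT libraries held 2.62, 1.72 and 2.39 CPM with curdlan and 0.842, 0.733 and 0.708 CPM without. It rose in both genotypes, by 1.61 (SE 0.34, adjusted p = 0.00418) on the log2 scale in KO and by 1.55 (SE 0.35, adjusted p = 0.00788) in WT, at levels spread widely among the KO curdlan libraries. Ltb, which anchors lymphotoxin to the membrane, measured 95.6, 104 and 113 CPM in KO with curdlan and 78, 88.7 and 97.2 CPM in unstimulated KO. Its values in WT were 32, 30.3 and 42.5 CPM with curdlan and 30.1, 23.4 and 28.7 CPM without it. Each KO library of Ltb lay above every WT library. Its log2 fold change with curdlan was 0.24 (SE 0.13, adjusted p = 0.198) in KO and 0.35 (SE 0.14, adjusted p = 0.0896) in WT, and neither passed. With the replicate number as a block the WT value was 0.34 (adjusted p = 0.0044).

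Tnfsf14 (ENSMUSG00000005824, chr17:57189492-57194177, minus strand) encodes LIGHT, a ligand of the lymphotoxin beta receptor and of HVEM. It measured 18.5, 13.1 and 14.7 CPM in KO with curdlan and 10.1, 8.69 and 7.86 CPM in unstimulated KO. With curdlan, WT libraries held 3.36, 3.21 and 3.93 CPM, against 3.2, 3.76 and 3.71 CPM in unstimulated WT. Every KO curdlan library lay above every other library, and the WT groups overlapped. It rose with curdlan in KO by 0.80 (SE 0.14, adjusted p = 0.00117), whereas in WT the value was -0.02 (SE 0.15, adjusted p = 0.943).

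Tnfsf10, which encodes the death ligand TRAIL, measured 14.6, 11.6 and 14.9 CPM in KO with curdlan and 5.47, 4.89 and 3.97 CPM in unstimulated KO. Levels in WT were 2.28, 2.28 and 6.32 CPM with curdlan and 1.67, 1.52 and 1.62 CPM in unstimulated cells. WT curdlan library 4 stood apart from the other 2 of its group. Curdlan's log2 fold change was 1.53 (SE 0.3, adjusted p = 0.003) in KO and 1.18 (SE 0.33, adjusted p = 0.026) in WT. The WT call was lost without WT curdlan library 4, where the log2 fold change was 0.51, and without any 1 of the 3 unstimulated WT libraries, with adjusted p-values of at most 0.0792 over all alternatives. Fasl, the other death ligand gene, held between 0 and 4 counts in any library and was not tested.

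Tnfsf11, which encodes RANK ligand, was below 1 CPM in every library, at 0.504, 0.608 and 0.94 CPM in KO with curdlan and 0.159, 0.12 and 0.256 CPM in unstimulated KO. It rose in KO by 1.87 (SE 0.35, adjusted p = 0.00188) on the log2 scale, and in WT its value was 0.31 (SE 0.39, adjusted p = 0.624). The B cell survival factor genes passed no curdlan test. Tnfsf13b (BAFF) had log2 fold changes of 0.18 (SE 0.17) in KO and 0.26 (SE 0.17) in WT, and Tnfsf13 (APRIL) of -0.15 (SE 0.099) in KO and -0.05 (SE 0.094) in WT. The exons of Tnfsf13 overlap over 73.5% of their length with those of the readthrough transcript Tnfsfm13 and the antisense transcript Tnfsf13os, so reads could not be assigned to one of them with certainty.

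Receptor genes moved in both directions. Tnfrsf1a (ENSMUSG00000030341, chr6:125349362-125362484, plus strand), the gene of TNF receptor 1, measured 227, 210.3 and 216 CPM in KO with curdlan and 161, 161 and 169.7 CPM in unstimulated KO. In WT it measured 156, 154 and 173 CPM with curdlan and 120.1, 119 and 118 CPM without. It rose in both genotypes, with log2 fold changes of 0.41 (SE 0.064, adjusted p = 0.000648) in KO and 0.44 (SE 0.065, adjusted p = 0.000535) in WT and a difference of -0.03 (SE 0.091). The ranges of KO and WT did not overlap in either state.

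Tnfrsf1b (ENSMUSG00000028599, chr4:145213463-145246870, minus strand), whose product lacks a death domain and signals through TRAF adapters, measured 2001, 1791 and 1658 CPM in KO with curdlan and 2098, 1772 and 1851 CPM in unstimulated KO. The WT libraries held 1299, 1317 and 1470.0 CPM with curdlan and 768, 816 and 972 CPM without. The 2 KO groups overlapped, whereas the 2 WT groups did not. It rose in WT by 0.68 (SE 0.11, adjusted p = 0.00107), while in KO the log2 fold change was -0.07 (SE 0.11, adjusted p = 0.676).

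Tnfrsf14, the gene of the LIGHT receptor HVEM, measured 16, 11.4 and 11.5 CPM in KO with curdlan and 38.5, 25 and 31.5 CPM in unstimulated KO. Its values in WT were 8.73, 10.9 and 10.4 CPM with curdlan and 8.8, 13.8 and 12.9 CPM without it. The unstimulated KO libraries stood above all others. It fell with curdlan in KO, at -1.29 (SE 0.2, adjusted p = 0.000546) on the log2 scale, and in WT the value was -0.24 (SE 0.2, adjusted p = 0.427). Ltbr, the lymphotoxin beta receptor gene, averaged 65.1 ± 5.49 CPM in KO with curdlan, 56 ± 0.45 CPM in unstimulated KO, 56 ± 2.91 CPM in WT with curdlan and 50.1 ± 2.77 CPM in unstimulated WT (SD, n = 3 each). Its log2 fold change was 0.22 (SE 0.073, adjusted p = 0.0437) in KO and 0.16 (SE 0.073, adjusted p = 0.144) in WT. With the replicate number as a block these became 0.14 (adjusted p = 0.14) in KO and 0.16 (adjusted p = 0.0305) in WT, so which genotype passed changed. Every KO response given with this block rests on libraries numbered 2 and 5, the only numbers present in both KO states.

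Among the receptors of costimulatory ligands, Tnfrsf8 (CD30) measured 6.29, 7.6 and 6.37 CPM in KO with curdlan and 7.12, 6.38 and 7.34 CPM in unstimulated KO. With curdlan, WT libraries held 8.32, 8.13 and 10 CPM, against 4.11, 4.51 and 4.92 CPM in unstimulated WT. The WT curdlan libraries were the highest 3 of the 12 and the unstimulated WT libraries the lowest 3, with both KO groups between them. Its response on the log2 scale was -0.04 (SE 0.12, adjusted p = 0.819) in KO and 0.97 (SE 0.12, adjusted p = 0.000116) in WT. Tnfrsf18 (GITR) fell in both genotypes, at -0.42 (SE 0.099, adjusted p = 0.00843) in KO and -0.30 (SE 0.097, adjusted p = 0.043) in WT. The WT call was lost in 9 of 20 alternatives, among them without any 1 of the 6 WT libraries (adjusted p up to 0.144), and the KO call in a fit of the KO groups alone (adjusted p = 0.0592). It averaged 4.09 ± 0.501 CPM in KO with curdlan, 5.44 ± 0.226 in unstimulated KO, 4.16 ± 0.128 in WT with curdlan and 5.14 ± 0.112 in unstimulated WT (SD, n = 3 each). Its exons overlap another counted gene over 27.2% of their length.

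Tnfrsf9, which encodes CD137, the receptor of the Tnfsf9 product, measured 90.3, 86 and 199 CPM in KO with curdlan and 109.5, 79 and 172 CPM in unstimulated KO. Levels in WT were 191, 156 and 150.4 CPM with curdlan and 125, 105 and 104 CPM in unstimulated cells. KO libraries numbered 5 were the highest of their groups in both states, and the WT groups did not overlap. Neither response passed, with log2 fold changes of 0.06 (SE 0.31, adjusted p = 0.918) in KO and 0.57 (SE 0.31, adjusted p = 0.222) in WT. With the replicate number as a block, both passed, at 0.20 (adjusted p = 0.0285) in KO and 0.57 (adjusted p = 2.88e-06) in WT. Tnfrsf4 (OX40), at 1.5 CPM in KO with curdlan, 1.03 in unstimulated KO, 1.35 in WT with curdlan and 0.994 in unstimulated WT, rose in KO by 0.53 (SE 0.18, adjusted p = 0.0475), and its WT value was 0.44 (adjusted p = 0.103). Its KO call was lost in 17 of the 20 alternatives and its log2 fold change was 0.30 (adjusted p = 0.31) with the block. In WT the block gave 0.44 (adjusted p = 0.0419). Cd27, below 1 CPM in every library, fell in KO, at -1.18 (SE 0.28, adjusted p = 0.00817), and its WT value was 0.02 (adjusted p = 0.964).

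The death-domain receptors beside Tnfrsf1a divided. Tnfrsf21, the gene of death receptor DR6, measured 26, 24.1 and 22 CPM in KO with curdlan and 38, 38.3 and 35.3 CPM in unstimulated KO. In WT it measured 36.1, 36.6 and 35 CPM with curdlan and 47.2, 53.8 and 55.9 CPM without. It fell in both genotypes without overlap, at -0.63 (SE 0.082, adjusted p = 0.000176) on the log2 scale in KO and -0.54 (SE 0.08, adjusted p = 0.00056) in WT. Tnfrsf10b, the gene of the mouse TRAIL death receptor, measured 22.1, 18.9 and 16.5 CPM in KO with curdlan and 19.3, 20.8 and 17.2 CPM in unstimulated KO. The WT libraries held 30.6, 28.5 and 29.3 CPM with curdlan and 18.5, 19.7 and 18.5 CPM without. Only the WT curdlan libraries stood apart from the other 9, and the log2 fold change was 0.01 (SE 0.1, adjusted p = 0.982) in KO and 0.64 (SE 0.1, adjusted p = 0.000831) in WT. Fas, the receptor of Fas ligand, had log2 fold changes of 0.11 (SE 0.074, adjusted p = 0.296) in KO and 0.16 (SE 0.075, adjusted p = 0.151) in WT, and the WT value was 0.17 (adjusted p = 0.0353) with the block.

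Tnfrsf12a, which encodes Fn14, the receptor of TWEAK, measured 18.9, 16.7 and 17 CPM in KO with curdlan and 8.31, 9.8 and 7.43 CPM in unstimulated KO. Its values in WT were 9.53, 9.77 and 9.29 CPM with curdlan and 7.29, 7.11 and 6.67 CPM without it. It rose in both genotypes, by 1.05 (SE 0.099, adjusted p = 2.13e-05) in KO and by 0.44 (SE 0.099, adjusted p = 0.00824) in WT, and the KO curdlan libraries lay above all others. Tnfrsf26, an orphan receptor gene of the mouse cluster on chromosome 7, fell in both genotypes, at -0.36 (SE 0.099, adjusted p = 0.0173) in KO and -0.44 (SE 0.098, adjusted p = 0.00753) in WT. It averaged 25.3 ± 2.61 CPM in KO with curdlan, 32.5 ± 2.03 in unstimulated KO, 26 ± 2.98 in WT with curdlan and 35.3 ± 1.79 in unstimulated WT (SD, n = 3 each). With the block its KO value was -0.23 (adjusted p = 0.0744). Its neighbours Tnfrsf22 and Tnfrsf23, genes of mouse decoy receptors for TRAIL, had log2 fold changes of -0.07 and 0.13 in KO and of -0.06 and 0.03 in WT, none of which passed. With the block, Tnfrsf23 reached 0.23 (adjusted p = 0.0367) in KO. Their transcripts are 91.7% identical over 1451 bases, so reads could have been split between them. Tnfrsf11a (RANK) and Tnfrsf13b (TACI) had values from -0.26 to -0.22 that did not pass. With the block, Tnfrsf13b passed in both genotypes, at -0.29 (adjusted p = 0.0122) in KO and -0.26 (adjusted p = 0.00619) in WT, and Tnfrsf11a in WT, at -0.26 (adjusted p = 0.0178). Tnfrsf11b, the decoy receptor gene for RANK ligand, likewise reached 0.69 (adjusted p = 0.0438) in WT, at levels below 1 CPM.

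**Figure D3:**
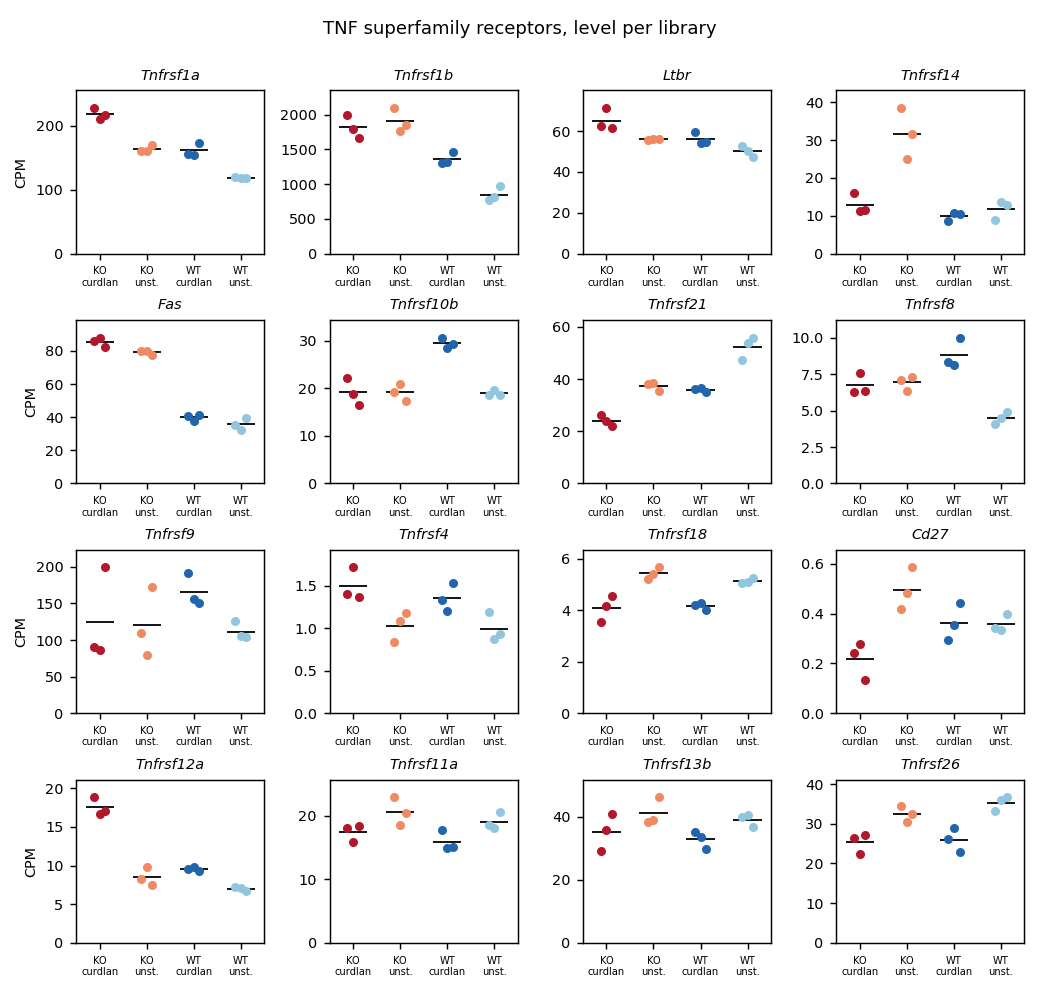
Level in CPM (vertical axes, each from 0) of 16 receptor genes in every library, as points, with the group mean as a line, for KO with curdlan, unstimulated KO, WT with curdlan and unstimulated WT. For Tnfrsf1b the group means are 1817, 1907, 1362 and 852 CPM in that order.

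Whether curdlan acted differently in the 2 genotypes was tested as the KO response minus the WT response. Of the 35 tested members, 2 had a higher response in KO and 7 a lower one, with 1.61% of all tested genes called higher and 3.6% called lower. The median difference was -0.08 over the members and 0 over all tested genes. Tnf had the lowest value, -2.16 (SE 0.24, adjusted p = 0.00195) on the log2 scale. Its curdlan level in KO was not below that in WT, and it was the unstimulated level that stood 5.95-fold higher in KO. Tnfsf15 followed with -1.69 (SE 0.3, adjusted p = 0.00951), where unstimulated KO was 2.14-fold WT and curdlan-treated KO 0.662-fold WT. For Tnfsf9 the difference was -0.92 (SE 0.16, adjusted p = 0.00951), with KO above WT in both states, and for Tnfrsf8 it was -1.01 (SE 0.16, adjusted p = 0.00768). These 4 calls held under every alternative tried, from other scalings to each library left out in turn.

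Another 3 members with a lower response in KO were receptors whose calls were less firm. Tnfrsf1b had a difference of -0.75 (SE 0.16, adjusted p = 0.0197), lost in 4 of 19 alternatives, such as without unstimulated KO library 1 or without unstimulated WT library 1 or 2 (adjusted p up to 0.062). Tnfrsf10b had -0.64 (SE 0.14, adjusted p = 0.0272), lost without any 1 of 9 libraries (adjusted p up to 0.0822). Tnfrsf14 had -1.05 (SE 0.28, adjusted p = 0.0494), lost in 13 of 19 alternatives (adjusted p up to 0.151). The members with a higher response in KO were Tnfsf14, at 0.82 (SE 0.2, adjusted p = 0.0387), and Tnfrsf12a, at 0.61 (SE 0.14, adjusted p = 0.029), each lost without any 1 of 7 libraries, with adjusted p-values up to 0.108 for Tnfsf14 and 0.0856 for Tnfrsf12a. LIGHT and its receptor HVEM, encoded by Tnfsf14 and Tnfrsf14, therefore had differences of opposite sign.

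Tnfsf8 had a difference of 1.07 (SE 0.3, adjusted p = 0.0616), just outside the threshold. It passed in 6 of 19 alternatives, namely with the replicate number as a block, at 1.38 (adjusted p = 0.00148), with the other numbering of the WT curdlan libraries, with no filter, with DESeq2, and without KO curdlan library 4 or WT curdlan library 4. Under either numbering the block gave no weight to KO curdlan library 4, the lowest of its group for Tnfsf8. Both block fits and the fit without that library are therefore not separate support. The block also brought in Tnfsf11, at 1.60 (adjusted p = 0.04), and Tnfrsf9, at -0.37 (adjusted p = 0.0114). Differences with wide errors were found for other ligands that rose in both genotypes, at -0.25 (SE 0.63) for Tnfsf18, 0.06 (SE 0.5) for Lta and 0.35 (SE 0.45) for Tnfsf10. Without WT curdlan library 4, the difference of Tnfsf10 was 1.02 (adjusted p = 0.0307).

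**Figure D4:**
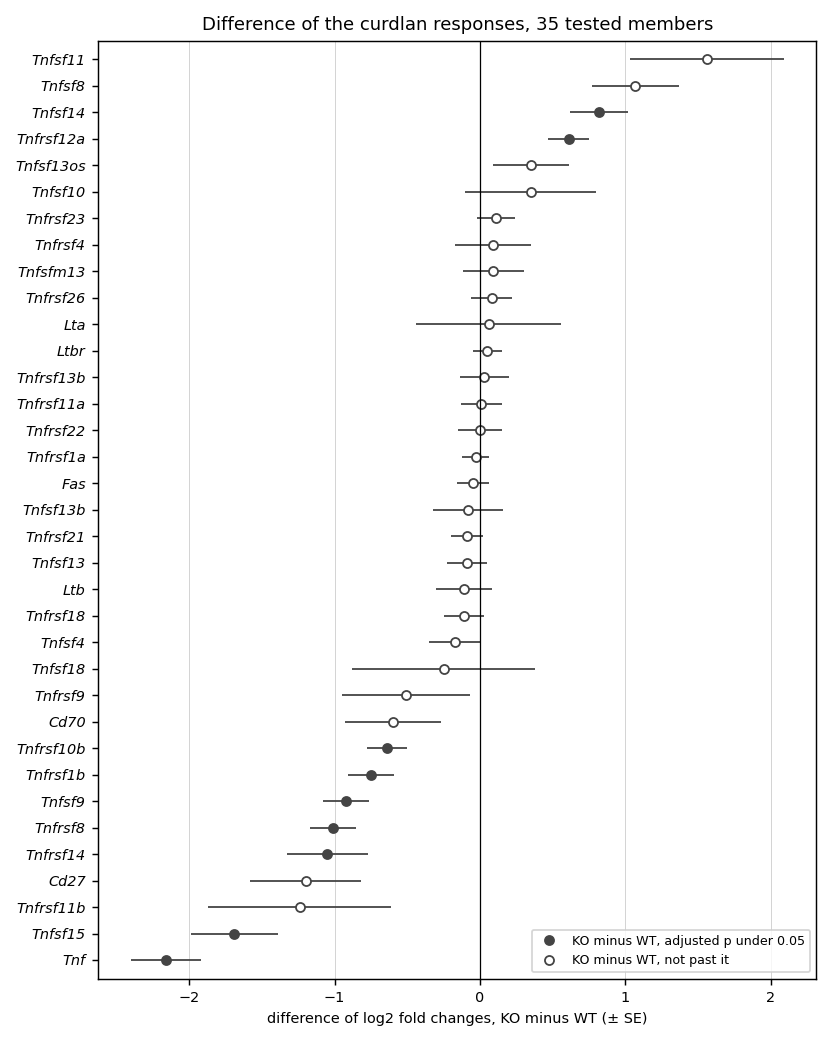
Difference of the curdlan responses, KO minus WT, on the log2 scale (horizontal axis, ± SE) for the 35 tested members, with filled points for an adjusted p under 0.05. Filled points comprise 7 on the left, from Tnf at -2.16 to Tnfrsf10b at -0.64, and 2 on the right, Tnfrsf12a at 0.61 and Tnfsf14 at 0.82.

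KO and WT were compared in each state, and 23 of the 35 tested members passed in at least 1 state, as did 63.8% of all tested genes, so that the members' share was near that of all genes. Without curdlan, 12 of the 35 tested members were higher in KO and 6 lower, with 21.1% of all tested genes called higher and 23.3% called lower. With curdlan, 12 were higher and 9 lower, with 24.7% of all tested genes called higher and 26.8% lower. The median log2 fold change of the members was 0.16 without curdlan and 0.12 with it, and over all tested genes -0.01 without curdlan and 0.009 with it. Under scaling by library size alone, the members with curdlan split as 9 higher and 12 lower. In both states 8 members were higher in KO, namely Fas, Ltb, Tnfrsf12a, Tnfrsf1a, Tnfrsf1b, Tnfsf10, Tnfsf14 and Tnfsf9, and 6 were lower, namely Cd70, Tnfrsf11b, Tnfrsf21, Tnfsf13, Tnfsf13os and Tnfsf4. Tnfrsf8 and Tnfsf15 were higher in KO without curdlan and lower with it.

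Among the ligands, Tnfsf4 was the most reduced in KO, at -2.30 (SE 0.13, adjusted p = 1.12e-07) on the log2 scale with curdlan and -2.13 (SE 0.14, adjusted p = 2.14e-07) without. Tnf was higher in unstimulated KO by 2.57 (SE 0.18, adjusted p = 4.4e-07), and with curdlan the value was 0.42 (SE 0.17, adjusted p = 0.0561). That value passed without KO curdlan library 4, without WT curdlan library 4 and with DESeq2 (adjusted p as low as 0.00803). Ltb was higher by 1.57 (SE 0.14, adjusted p = 2.85e-06) with curdlan and 1.68 (SE 0.14, adjusted p = 1.6e-06) without, Tnfsf14 by 2.14 (adjusted p = 4.48e-07) with curdlan and 1.32 (adjusted p = 1.48e-05) without, and Tnfsf10 by 1.92 (adjusted p = 0.000278) with curdlan and 1.57 (adjusted p = 0.00204) without. Tnfsf9 was higher by 0.79 (adjusted p = 0.000113) with curdlan and 1.71 (adjusted p = 3.99e-07) without. The value of Tnfsf8 was 1.38 (adjusted p = 0.000222) with curdlan and 0.31 (adjusted p = 0.265) without. Tnfsf15 stood at -0.60 (adjusted p = 0.0299) with curdlan, a call lost in 4 of 19 alternatives, namely without KO curdlan library 4, without WT curdlan library 4, in a fit of the 2 groups alone and with the replicate number as a block (adjusted p up to 0.169), and at 1.09 (adjusted p = 0.00112) without.

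Ligands of low level also differed. Cd70 was lower in KO, at -1.27 (adjusted p = 0.000461) with curdlan and -0.67 (adjusted p = 0.0378) without, the unstimulated call being lost in 6 of 19 alternatives. Tnfsf11 was higher with curdlan, at 1.67 (adjusted p = 0.00126). Tnfsf13 averaged 4.5 ± 0.241 CPM in KO with curdlan and 6.3 ± 0.409 CPM in WT with curdlan, and 4.97 ± 0.495 CPM in unstimulated KO and 6.54 ± 0.246 CPM in unstimulated WT (SD, n = 3 each). It was lower in KO, at -0.48 (adjusted p = 0.00131) with curdlan and -0.39 (adjusted p = 0.00494) without. Its antisense partner Tnfsf13os, at 0.938 CPM in KO and 1.5 CPM in WT with curdlan, was lower too, at -0.68 (adjusted p = 0.00861) with curdlan and -1.03 (adjusted p = 0.000681) without. The exons of Tnfsf13os overlap those of Tnfsf13 and Tnfsfm13 over 42.7% of their length. The kit does not mark strand, so the values of Tnfsf13 and Tnfsf13os may not be independent.

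Fas, whose product is the receptor of Fas ligand, was higher in KO in both states. It measured 85.9, 88 and 82.1 CPM in KO with curdlan and 40.7, 37.8 and 41.2 CPM in WT with curdlan. Without curdlan it measured 79.7, 80.1 and 77.4 CPM in KO and 35.3, 32.3 and 39.4 CPM in WT. All 6 KO libraries lay above all 6 WT libraries, and the log2 fold change was 1.10 (SE 0.076, adjusted p = 4.75e-07) with curdlan and 1.15 (SE 0.075, adjusted p = 2.63e-07) without. Both TNF receptor genes were higher in KO. Tnfrsf1b differed by 0.42 (SE 0.11, adjusted p = 0.00721) with curdlan and 1.16 (SE 0.11, adjusted p = 5.42e-06) without, and Tnfrsf1a by 0.44 (SE 0.064, adjusted p = 0.000147) with curdlan and 0.46 (SE 0.065, adjusted p = 0.000105) without. Scaling by library size alone removed the curdlan call of Tnfrsf1b, where its value was 0.17 (adjusted p = 0.199). Tnfrsf14 was higher in unstimulated KO by 1.42 (SE 0.2, adjusted p = 9.24e-05), and its value with curdlan was 0.38 (adjusted p = 0.131).

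Tnfrsf12a was higher in KO by 0.88 (adjusted p = 1.74e-05) with curdlan and 0.27 (adjusted p = 0.0407) without, the unstimulated call being lost in 12 of 19 alternatives. Tnfrsf8 stood at -0.39 (adjusted p = 0.0138) with curdlan, a call lost without WT curdlan library 4 (adjusted p = 0.0672), and at 0.62 (adjusted p = 0.000877) without. Death-domain receptor genes other than Fas and Tnfrsf1a were lower in KO or did not pass. Tnfrsf21 was lower, at -0.58 (adjusted p = 0.000101) with curdlan and -0.49 (adjusted p = 0.000342) without, and Tnfrsf10b at -0.62 (adjusted p = 0.000311) with curdlan, while its unstimulated value was 0.01 (adjusted p = 0.924). Tnfrsf11b was lower, at -2.40 (adjusted p = 0.000663) with curdlan, at a mean of 0.108 CPM in KO and 0.585 CPM in WT, and at -1.16 (adjusted p = 0.0324) without, a call lost in 5 of 19 alternatives. Small increases were called with curdlan for Ltbr, at 0.22 (adjusted p = 0.0264), and Tnfrsf23, at 0.31 (adjusted p = 0.0171). The first was lost in 5 and reversed in 1 of 19 alternatives, and the second was lost in 6. Tnfrsf23 averaged 26.6 ± 3.8 CPM in KO with curdlan and 21.5 ± 1.54 CPM in WT with curdlan (SD, n = 3 each).

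**Figure D5:**
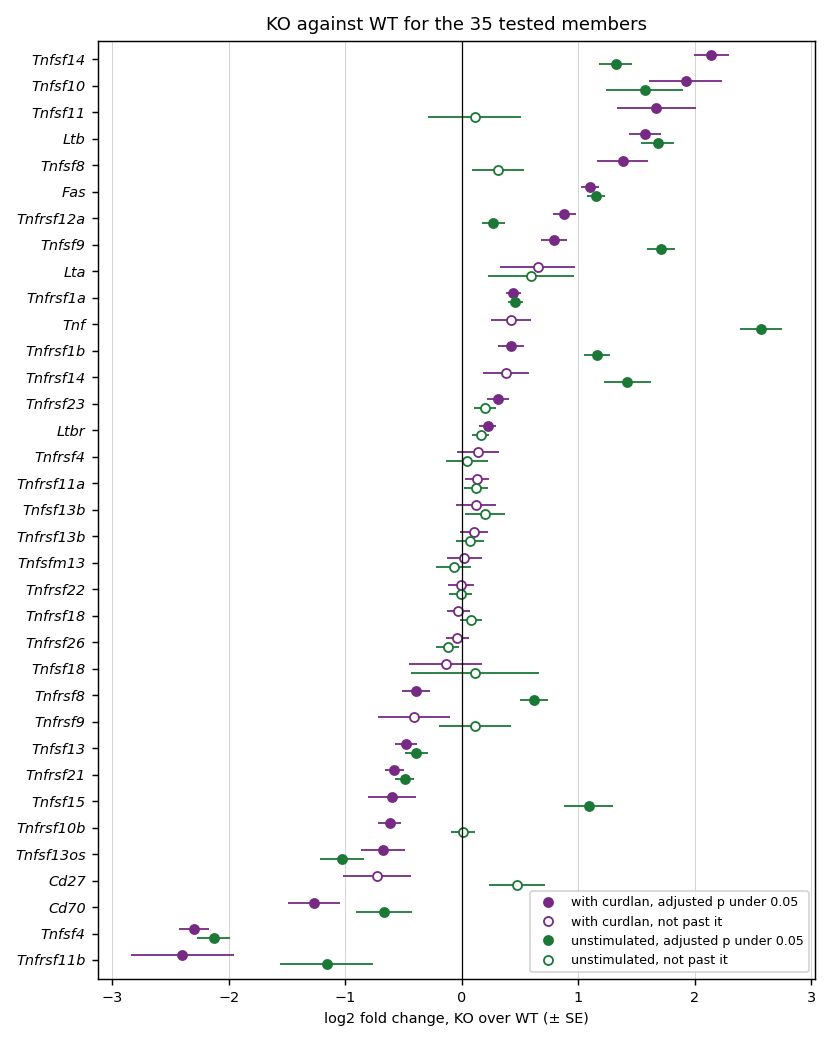
Log2 fold change of KO over WT (horizontal axis, ± SE) for the 35 tested members, with curdlan drawn above unstimulated and filled points for an adjusted p under 0.05. Tnf lies at 0.42 with curdlan and 2.57 without, and Tnfrsf8 and Tnfsf15 have filled points on both sides of 0.

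Markers of several cell types differed between KO and WT beside these members, as did many other genes. With curdlan, 24.7% of all tested genes were called higher in KO and 26.8% lower. Without curdlan, 21.1% were called higher and 23.3% lower. Of 7 macrophage markers, 5 were higher in KO in each state, and their summed level was 4647.2 to 5608.7 CPM in KO and 1775.5 to 1898.2 CPM in WT with curdlan. Without curdlan that sum was 5048.6 to 6067.3 CPM in KO and 1877.1 to 1988.8 CPM in WT. C1qa, a complement gene of macrophages, averaged 1193 ± 83.1 CPM in unstimulated KO and 62.1 ± 22.4 CPM in unstimulated WT (SD, n = 3 each). Of 8 neutrophil markers 7 were higher in KO in each state, with sums of 6036.4 to 9467.1 CPM in KO and 3912.8 to 4589 CPM in WT with curdlan, and of 6486.8 to 10207 CPM in KO and 4572.4 to 5811.8 CPM in WT without. Of 6 mast cell and basophil markers 5 were higher in KO, with sums of 143.69 to 181.94 CPM in KO and 34.493 to 38.681 CPM in WT with curdlan, and of 126.1 to 198.98 CPM in KO and 34.6 to 38.559 CPM in WT without.

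Of 7 B cell and plasma cell markers 6 were lower in KO, with sums of 48.992 to 205.08 CPM in KO and 232.11 to 311.42 CPM in WT with curdlan, and of 39.001 to 186 CPM in KO and 224.16 to 296.09 CPM in WT without. Jchain, an antibody joining chain gene, averaged 0.0523 CPM in unstimulated KO and 76.4 CPM in unstimulated WT. The KO sum was mostly Sdc1, at 106 ± 74 CPM in unstimulated KO (SD, n = 3). Of 9 T cell markers 7 were tested, of which 2 were higher in KO in each state, with 2 lower with curdlan and 3 lower without. Their sums were 11.528 to 18.72 CPM in KO and 9.6559 to 10.391 CPM in WT with curdlan, and 12.506 to 20.391 CPM in KO and 8.6022 to 9.9038 CPM in WT without. In unstimulated cells Cd28 averaged 10.8 CPM in KO and 1.82 CPM in WT and Lck 0.466 CPM in KO and 3.25 CPM in WT, whereas Cd3e, a defining T cell gene, was at 0.00802 CPM in KO and 0.0254 CPM in WT. Of 6 NK cell markers 3 were tested, and 1, Klrd1, was lower in KO in each state, at 0.0279 CPM in KO and 1.51 CPM in WT without curdlan. Sums of the NK cell markers were 0.69127 to 1.1837 CPM in KO and 1.894 to 2.3565 CPM in WT with curdlan, and 0.43723 to 0.69817 CPM in KO and 2.2119 to 2.5047 CPM in WT without, with Gzma at 0 in all 12 libraries. Of 6 stromal cell markers 3 were higher and 1 lower in KO in each state, with sums of 11.116 to 15.908 CPM in KO and 9.6654 to 11.696 CPM in WT with curdlan, and of 12.134 to 21.842 CPM in KO and 10.462 to 12.116 CPM in WT without. Of 10 dendritic cell markers 4 were higher in KO in each state, with 4 lower with curdlan and 3 lower without. Their sums were 16992 to 21980 CPM in KO and 9359.7 to 9860.4 CPM in WT with curdlan, and 15616 to 19887 CPM in KO and 9544.4 to 9744.1 CPM in WT without. These sums were mostly Cd74, H2-Aa and H2-Ab1, at 10963, 3272 and 1875 CPM in unstimulated KO and 6024, 1225 and 734 CPM in unstimulated WT. Itgax, Ccr7 and Clec9a were lower in KO in each state, so the sums do not stand for the whole list. The counts of markers called are to be read beside the shares of all tested genes given above. The T cell, stromal cell and dendritic cell markers were called in both directions. Several of the listed markers are shared between the myeloid cells of a marrow culture. The part of these markers in the differences between KO and WT members was not tested.

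The pathway downstream was followed through 45 genes for adapters, kinases, ubiquitin editors, death effectors, NF-kB subunits, sheddases and further family members, of which 42 were tested. With curdlan, 16 rose and 5 fell in KO, where 14% of all tested genes rose and 14.6% fell, and 21 rose and 1 fell in WT, where 11.4% rose and 8.4% fell. All 5 NF-kB subunit genes rose in both genotypes, with a median log2 fold change of 0.53 in KO and 0.85 in WT, and Rel stood at 0.69 (adjusted p = 0.0384) in KO and 1.10 (adjusted p = 0.00503) in WT. Tnfaip3, the gene of the NF-kB brake A20, rose by 0.76 (adjusted p = 7.79e-05) in KO and 1.44 (adjusted p = 8.53e-07) in WT, and Cflar, an inhibitor of death receptor signalling, by 0.53 (adjusted p = 0.00309) in KO and 1.45 (adjusted p = 3.15e-06) in WT. Cd40, a receptor gene of the same superfamily outside the rule, rose in WT by 1.34 (adjusted p = 0.0143), and its KO value was 0.36 (adjusted p = 0.441). In KO the others with the largest changes were Relt, lower at -0.86 (adjusted p = 0.000174), and Rnf31, higher by 0.73 (adjusted p = 0.000492).

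The response of 7 pathway genes was lower in KO, against 3.6% of all tested genes, led by Tnip1, a partner of A20, at -1.05 (adjusted p = 0.00477), Cflar at -0.92 (adjusted p = 0.00784), Tnfaip3 at -0.68 (adjusted p = 0.0111) and Adam17, the sheddase of TNF, at -0.62 (adjusted p = 0.0343). In edgeR's test 0 were higher, against 1.61% of all tested genes, and 2 were higher at an unadjusted p under 0.05. With so low a share, a count of 0 among 42 genes says little. With curdlan, 19 of the 42 were higher in KO and 8 lower, beside 24.7% and 26.8% of all tested genes. Without it 22 were higher and 5 lower, beside 21.1% and 23.3%. Cd40 differed most, by 2.34 (adjusted p = 0.000124) with curdlan and 3.32 (adjusted p = 1.26e-05) without. The next in size with curdlan were Bid at 1.27 (adjusted p = 1.2e-06), Eda2r at -1.06 (adjusted p = 0.000601) and Map3k7 at 0.98 (adjusted p = 3.85e-07), and without curdlan Cflar at 1.48 (adjusted p = 6.41e-07), Bid at 1.24 (adjusted p = 1.21e-06) and Tnfaip3 at 1.22 (adjusted p = 6.14e-07).

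Of the 35 tested members, 29 passed in at least 1 of the 5 comparisons, as did 69.9% of all tested genes. The 6 that passed in none in the main fit were Tnfrsf11a, Tnfrsf13b, Tnfrsf22, Tnfrsf9, Tnfsf13b and Tnfsfm13. Among these, Tnfsfm13, the readthrough transcript of Tnfsf12 and Tnfsf13, averaged 40.3 ± 7.52 CPM in KO with curdlan, 37.2 ± 7.27 in unstimulated KO, 39.7 ± 2.16 in WT with curdlan and 39 ± 3.04 in unstimulated WT (SD, n = 3 each). No gene matched the symbol Tnfsf12, the gene of TWEAK, and whether its reads were counted under Tnfsfm13 was not tested. The exons of Tnfsfm13 also overlap those of Tnfsf13 and Tnfsf13os over 55.3% of their length. With the replicate number as a block, Tnfrsf9, Tnfrsf13b, Tnfrsf11a and Tnfsfm13 each passed in at least 1 comparison. The 4 members that were not tested were Fasl, Tnfrsf17 (BCMA), Tnfrsf19 (TROY) and Tnfrsf25, with at most 8 counts in any library.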

How the data were processed

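RNA of 12 libraries was prepared with an unstranded kit, per the labels' protocols. The authors deposited whole-number read counts per gene and library, not normalized. They also deposited tables of KO against WT with curdlan and of an interaction, holding log2 fold changes, standard errors and p-values, per the file headers; their model is not stated there. The submitters' processing notes name DESeq2 1.8.2, featureCounts 1.4.6, TopHat2 (version written as 2.4.2a), FastQC 0.11.1 and SAMtools 1.2, with no roles or order. Build, annotation and strand setting of the counting were not given in the sources used here, and 18 columns of normalized values per library were not used.

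From the counts, edgeR 4.0.16 (in R 4.3.3) kept 18981 genes by filterByExpr. CPM values use library sizes multiplied by TMM factors. A single fit of all 12 libraries with 4 group means gave 5 contrasts, each tested by the two-sided quasi-likelihood F-test. Benjamini-Hochberg adjusted p-values under 0.05 counted as past the threshold. Replicates differed by more than counting noise, with a chi-square per degree of freedom of 9.86 to 83.9, and none were merged. Coordinates and exon lengths are those of the GRCm38 annotation in GENCODE, in which all 39 members matched by identifier, and promoter sequences those of RefSeq.

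Replicate numbers are those of the library names. Deviations from the group means of libraries with the same number in the 2 states correlated at 0.4 and 0.75 in KO and at 0.6, 0.44 and 0.22 in WT. On these data alone, the replicate block treated libraries of the same number as pairs across states. In KO only numbers 2 and 5 occur in both states. Unstimulated KO library 1 and KO curdlan library 4 had no partner, so they had no weight in the KO responses with the block. The labels do not say what a number marks, and the main tests ignored any such pairing. Libraries of different number correlated at -0.66 to 0.39 in KO and -0.5 to 0.14 in WT, so that KO pairs of the same number did not always stand apart. Deviations within a group cancel, so a positive value for one pair lowers the others, and part of this contrast is built in. The authors' comparison table numbers the WT curdlan columns in another way, which was run as an added alternative chosen after seeing the data. Other alternatives were RLE, upper-quartile and library-size scaling, no filter, the replicate block, fits of the 2 groups compared, each library left out, and DESeq2 1.42.0.

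Members and gene lists were chosen with earlier results of these data known. Members with a call in any comparison and a mean of at least 1 CPM in a group are given by library or group mean, others by range, and up to 4 called pathway genes per comparison by size.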

Additional observations from a re-analysis of the deposited data

Results flagged for a closer look

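The curdlan responses of 9 members differed between KO and WT in the test of the difference itself, on the log2 scale and by edgeR's quasi-likelihood test. A lower response in KO was found for Tnf at -2.16 (adjusted p = 0.00195), Tnfsf15 at -1.69 (adjusted p = 0.00951), Tnfrsf14 at -1.05 (adjusted p = 0.0494), Tnfrsf8 at -1.01 (adjusted p = 0.00768), Tnfsf9 at -0.92 (adjusted p = 0.00951), Tnfrsf1b at -0.75 (adjusted p = 0.0197) and Tnfrsf10b at -0.64 (adjusted p = 0.0272). A higher response in KO was found for Tnfrsf12a at 0.61 (adjusted p = 0.029) and Tnfsf14 at 0.82 (adjusted p = 0.0387). For Tnf, Tnfsf15, Tnfrsf8, Tnfsf9, Tnfrsf1b and Tnfrsf14 the unstimulated level was higher in KO, as it was for the 2 members with a higher response, Tnfsf14 and Tnfrsf12a. For Tnfrsf10b the unstimulated levels overlapped, at 19.3, 20.8 and 17.2 CPM in KO and 18.5, 19.7 and 18.5 CPM in WT.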

How the results depend on the processing

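In KO with curdlan 15 of 19 member calls held in every alternative, as did 15 of 17 in WT, 4 of 9 for the difference of the responses, 16 of 21 for KO against WT with curdlan and 15 of 18 without. Leaving out 1 library in turn gave 4 to 10 members for the difference, with 4 left without unstimulated WT library 1 or 2, and 5 left without unstimulated KO library 1 or WT curdlan library 1 or 2. In the other comparisons it gave 16 to 20 members for curdlan in KO, 15 to 17 for curdlan in WT, 18 to 22 for KO against WT with curdlan and 15 to 20 without. Where a group was left with 2 libraries, these were taken to vary like the others. With the replicate number as a block, 19 members were called for curdlan in KO, 25 in WT and 12 for the difference, and the calls that changed are named in the report. The KO responses in that block rest on numbers 2 and 5 alone. Numbering the WT curdlan libraries as in the authors' comparison table, an alternative chosen after seeing the data, gave 16, 19 and 8 members. Between genotypes the numbers are shared without pairing, with correlations of deviations from -0.29 to 0.14. Number 5 occurs only in KO, so a block across genotypes takes up the level of both KO libraries numbered 5. Their level then does not enter the comparison of KO with WT. That block gave 23 members with curdlan and 19 without, and turned Tnfrsf9 in unstimulated cells to -0.34 (adjusted p = 0.00237), against 0.11 without a block. It also brought in Lta with curdlan, at 0.89 (adjusted p = 0.00921), and without, at 0.86 (adjusted p = 0.0319), and with curdlan Tnfrsf9, at -0.77 (adjusted p = 7.8e-06), and Tnfsfm13, at 0.19 (adjusted p = 0.0309). KO libraries numbered 5 were the highest of their groups for Tnfrsf9 and the lowest for Lta and Tnfsfm13, so these changes are not to be read as an effect of pairing. Calls lost were Tnfsf15 with curdlan, at -0.55 (adjusted p = 0.058), and Cd70 without, at -0.48 (adjusted p = 0.0869). Over all genes the block raised the calls to 7276 for curdlan in WT, against 3759, and to 2671 for the difference, against 989. DESeq2 called 1961 genes for the difference, and a fit of the KO groups alone called 3142 for curdlan in KO, against 5425. Leaving out 1 library gave 366 genes (without WT curdlan library 2) to 2837 (without KO curdlan library 2) for the difference, 2170 to 4216 for curdlan in WT and 3490 to 6074 for curdlan in KO, and library size alone gave 6123 for curdlan in WT.

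Scaling by library size alone moved the median log2 fold change of all genes to -0.199 for curdlan in KO, -0.167 for curdlan in WT, -0.062 for the difference, -0.236 for KO against WT with curdlan and -0.191 without. The share of calls that were higher then fell to 17.9%, 25.1%, 15.7%, 23.7% and 26.4% in that order, against 49%, 57.6%, 30.8%, 48% and 47.5%. Upper-quartile scaling gave 42% for the difference and 46.3% for curdlan in WT. Under library size alone Ltbr reversed between KO and WT with curdlan, to -0.03 (adjusted p = 0.756), and the cause was not tested. The filter on low counts, and no fixed floor of 3 counts, set which members were tested. Tnfrsf25, with up to 8 counts in a library, was not tested, while Tnfrsf11b, with 1 to 7 counts in KO with curdlan, was. Values at such low counts are uncertain.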

Other observations

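The authors' deposited table named an interaction held log2 fold changes that lay within 0.1 of KO against WT in unstimulated cells for all 35 tested members, with a largest gap of 0.045 and a median gap of 0.011. Against the difference of the curdlan responses, 5 of the 35 lay within 0.1 and the median gap was 0.51. Over all 18981 tested genes the median gap was 0.011 for the first and 0.47 for the second. In the authors' deposited table of KO against WT with curdlan, 33 of the 35 members had the same call as here, with 19 called there and 21 here.

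Several members lie next to each other in the genome, and neighbours did not always move together. Tnfsf9, Cd70 and Tnfsf14 lie within 39715 bases of the next on chromosome 17. With curdlan, Tnfsf9 and Tnfsf14 were higher in KO, by 0.79 and 2.14 on the log2 scale, while Cd70 was lower, at -1.27. Tnfrsf1b and Tnfrsf8, 20267 bases apart on chromosome 4, both rose with curdlan in WT, by 0.68 and 0.97, and neither passed in KO, at -0.07 and -0.04.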
